A study of Mus musculus with 12 samples.

Results

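The replication-dependent histone cluster genes are the copies of the linker histone H1 and of the core histones H2A, H2B, H3 and H4 that lie in gene clusters. Members were the protein-coding genes of GENCODE mouse M21 whose symbol starts with Hist1h, Hist2h, Hist3h or Hist4h. There were 67 of them among 55573 genes in the count tables, namely 6 of H1, 18 of H2A, 18 of H2B, 12 of H3 and 13 of H4. They lie on chromosome 13 (54 genes), chromosome 3 (10 genes), chromosome 11 (2 genes) and chromosome 6 (1 gene), and 3 annotated pseudogenes with such symbols were not members.

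The data were RNA-seq read counts of poly(A) RNA from fully grown mouse oocytes at the germinal vesicle (GV) stage, taken from a B6D2F1 female aged 12 weeks. Whole oocytes were amplified for 10, 14 or 18 PCR cycles, and lysates of other oocytes were diluted to 1/2, 1/4 and 1/8 and amplified for 18 cycles, with 2 libraries in each of these 6 groups. ERCC molecules, synthetic RNAs of known amount, were added to every sample. The 6 whole libraries came from separate oocytes, while the fractions came from a pair of oocytes and the labels do not say which fraction came from which, so p-values measure only the spread between these libraries. Counts on genes were 11597144 and 9189672 after 10 cycles, 12349577 and 13806199 after 14 and 3017069 and 1706478 after 18. In the fractions they came to 4024670 and 3598549 in 1/2, 4027907 and 5049518 in 1/4 and 11404262 and 1702062 in 1/8 oocytes. Among the whole oocytes, depth was thus lower at 18 cycles than at 10 and 14, so there it cannot be told apart from the 18 cycles.

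Cluster histone genes are transcribed mainly in S phase, when new DNA needs new nucleosomes. Their mRNAs mostly end at a conserved stem-loop, which the stem-loop binding protein holds, in place of a poly(A) tail, so that selection with oligo(dT) recovers mainly transcripts that do carry a tail. A GV oocyte is arrested in meiotic prophase and stores mRNA, and its chromatin holds an oocyte linker histone, H1foo, which is encoded outside the clusters.

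Of the 67 members, 23 had a count in all 12 libraries, 37 had 10 or more counts in total, 19 had 1 to 9 and 11 had none. A library with no count still allows up to 3 counts, which was 0.217 to 1.76 CPM (counts scaled to a library total of 1e6 gene counts). Such limits cover counting error only, since PCR reads without molecular identifiers are not independent molecules. Members with at least 1 count numbered 40 and 34 after 10 cycles, 37 and 40 after 14 and 38 and 33 after 18, and 34 and 34 in 1/2, 37 and 32 in 1/4 and 34 and 27 in 1/8 oocytes. The 3 groups of whole oocytes overlapped, and the lowest number was in the second 1/8 library. At the smallest library total, the expected number was 28.5 and 25.7 after 10 cycles, 28.5 and 26.3 after 14 and 32.9 and 33.0 after 18, and 31.8 and 30.6 in 1/2, 32.5 and 30.5 in 1/4 and 27.1 and 27.0 in 1/8 oocytes. At that common depth both whole oocytes at 18 cycles lay above all 4 whole oocytes at 10 and 14 cycles.

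The summed level of the members was 214 and 231 CPM after 10 cycles, 198 and 191 after 14 and 408 and 271 after 18, and 521 and 330.4 in 1/2, 259.7 and 266 in 1/4 and 322 and 233 in 1/8 oocytes. Both whole oocytes at 18 cycles lay above the 4 at fewer cycles, and the 1/2 oocytes held the highest value, with group means of 222 ± 12.4, 194 ± 4.88, 339.5 ± 96.5, 426 ± 135, 263 ± 4.74 and 278 ± 63.4 CPM in the same order (SD, n = 2). Without Hist1h2bc, the most abundant member, the sum was 92.8 and 76.6 CPM after 10 cycles, 123 and 83.7 after 14 and 228 and 222 after 18, and 339 and 217 in 1/2, 198 and 168 in 1/4 and 150.3 and 108 in 1/8 oocytes. For that remainder both 18-cycle whole oocytes lay above every whole oocyte given fewer cycles, and the second 1/8 library fell within the range of those with fewer cycles. No test was made on sums over members.

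Sums were also taken by class, with no test of a difference between classes. H1 summed to 26.4 and 17.3 CPM after 10 cycles, 39.9 and 23.7 after 14 and 34.5 and 20.5 after 18, and 30.3 and 26.4 in 1/2, 19.4 and 31.3 in 1/4 and 33.7 and 27.6 in 1/8 oocytes, and H2A to 26.0 and 23.0 CPM after 10 cycles, 30.2 and 22.7 after 14 and 26.2 and 23.4 after 18, and 65.6 and 39.7 in 1/2, 32.5 and 24.0 in 1/4 and 45.2 and 30.6 in 1/8 oocytes. For both classes the whole oocytes at 18 cycles overlapped with the other whole oocytes. H2B summed to 137 and 167 CPM after 10 cycles, 97.9 and 123 after 14 and 259 and 133 after 18, and 288 and 169.8 in 1/2, 129.8 and 147 in 1/4 and 203 and 144 in 1/8 oocytes, with overlap between 18 and 10 cycles. Of this, Hist1h2bc alone made up 121 and 154 CPM after 10 cycles, 74.7 and 107 after 14 and 180.0 and 49.8 after 18. Without it, the H2B sum of both whole oocytes at 18 cycles also lay above every whole oocyte at 10 and 14 cycles. H3 summed to 8.19 and 7.83 CPM after 10 cycles, 11.4 and 9.56 after 14 and 48.7 and 55.1 after 18, and 56.6 and 42.0 in 1/2, 43.2 and 32.7 in 1/4 and 17.2 and 10.6 in 1/8 oocytes and H4 to 15.5 and 15.9 CPM after 10 cycles, 18.1 and 12.02 after 14 and 39.1 and 39.3 after 18, and 80.8 and 52.5 in 1/2, 34.8 and 31.1 in 1/4 and 23.7 and 20.0 in 1/8 oocytes. In these 2 classes the whole oocytes at 18 cycles, the 1/2 and the 1/4 oocytes all lay above every whole oocyte at 10 and 14 cycles, and the 1/8 oocytes lay below the whole oocytes at 18 cycles.

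**Figure D1:**
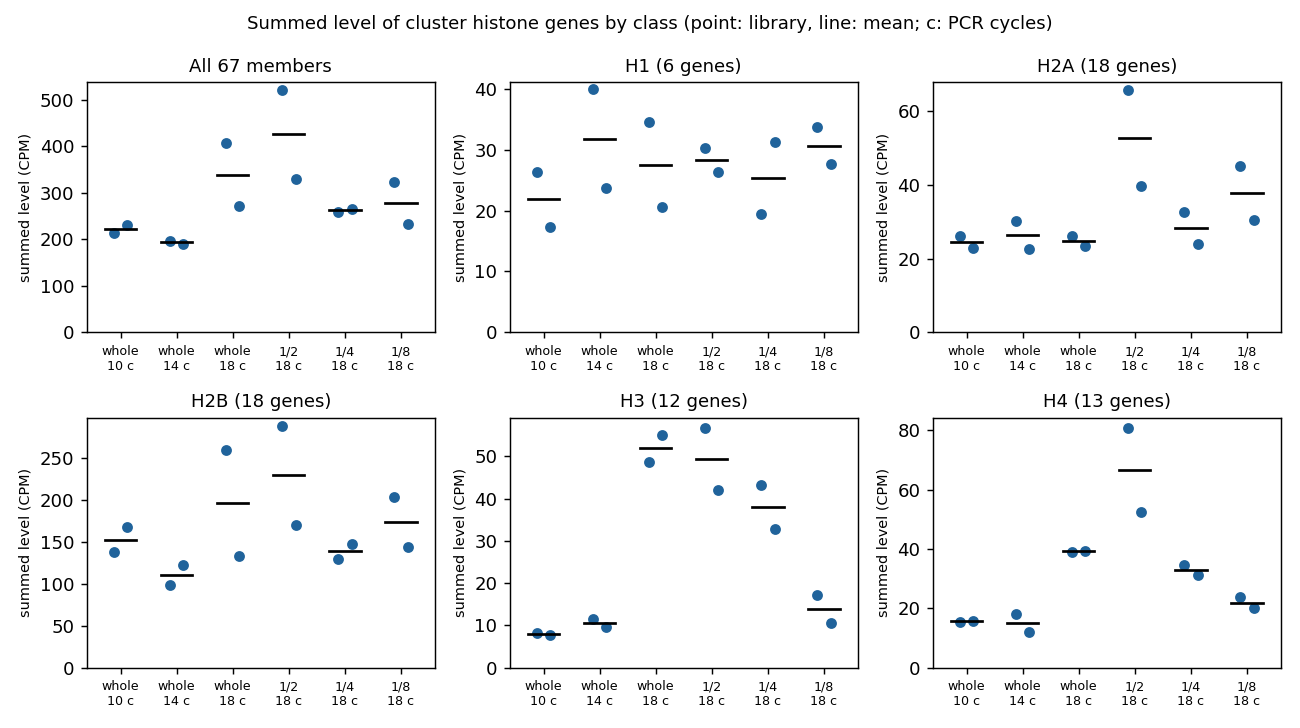
Summed level in CPM (vertical axes, from 0) of all members and of each histone class in the 12 libraries, by group (horizontal axes); points are libraries and lines are means of 2. H3 lay at or under 11.4 CPM in the whole oocytes at 10 and 14 cycles and at 48.7 and 55.1 CPM at 18 cycles.

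The first comparisons set whole oocytes at 10, 14 and 18 cycles against each other, with the 6 whole libraries in a common fit. These groups are separate oocytes that also differ in depth, and the part of the cycles themselves was not tested. After the filter (5 or more counts in at least 2 libraries) 26 members were tested, so the others enter no count below. Called means an adjusted p under 0.01 in the quasi-likelihood test of edgeR, with p-values adjusted by Benjamini-Hochberg, over the 17532 genes tested. Of the 26, 8 were higher at 18 than at 10 cycles, beside 12.3% of all genes tested, and 0 were lower, beside 10.8% (1 was lower at an unadjusted p under 0.05, and 0 were called lower by DESeq2). Between 18 and 14 cycles, 7 of 26 were higher, beside 12.5% of all genes, and 0 were lower, beside 10.7% (2 at an unadjusted p under 0.05, and 0 by DESeq2). DESeq2 called 9 of 26 higher in each of these comparisons, beside 15.6% and 15.7% of all genes. The 18-cycle libraries are shared by both comparisons. Between 14 and 10 cycles, edgeR called 0 members higher and 0 lower, beside 0% of all genes in either direction, with 2 members at an unadjusted p under 0.05 and 0 called by DESeq2.

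The members called higher at 18 cycles were Hist1h1e, Hist1h2ac, Hist3h2ba, Hist1h3e, Hist1h3f, Hist1h3g, Hist1h4a and Hist1h4h against 10 cycles, and Hist1h1c in place of Hist1h1e and Hist1h3g against 14 cycles. The median log2 fold change of the 26 members was 1.23 against 10 cycles, beside -0.29 over all genes tested, and 1.05 against 14 cycles, beside -0.29. Between 14 and 10 cycles it was 0.17, beside 0.01. Without replicate 1 or 2 at 14 cycles, the median against 14 cycles was 1.79 or 0.79, beside -0.24 or -0.22 over all genes. Between 14 and 10 cycles it was then -0.09 or 0.47, beside -0.01 in either case. With size factors from the ERCC molecules the median of all genes against 10 cycles moved to 1.96 and that of the members to 3.49, so that the difference between both medians was 1.53 in place of 1.52. Against 14 cycles these medians moved to 1.97 and 3.30. Under that scaling 19 of 26 members against 10 and 16 against 14 cycles were called higher, beside 47.6% and 47.9% of all genes, so part of that rise was common to all genes. The count of 8 against 10 cycles fell to 2 without either library at 10 cycles, where the share of all genes also fell, to 5.83% without replicate 1 and 5.39% without replicate 2. It fell to 3 without replicate 1 at 18 cycles (10.8% of all genes) and to 5 without replicate 2 at 18 cycles or without either library at 14 cycles (12.4%, 10.6% and 10.6% of all genes). The count of 7 against 14 cycles fell to 2 without replicate 2 at 14 cycles (5.73% of all genes), 3 without replicate 1 at 14 or at 10 cycles (5.73% and 10.7%), and 4 without replicate 2 at 10 or replicate 1 at 18 cycles (10.4% and 11.3%). Without replicate 2 at 18 cycles it was 6 (12.3% of all genes), of which Hist1h2bc and Hist1h4i are not among the 7. Hist1h3f and Hist3h2ba were the 2 members called in each of these 6 fits, against 10 and against 14 cycles alike.

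GC content and length, compared after the values were seen, also differed between the genes called. The genes called higher against 10 cycles had a median GC content of 53.7% and those called lower 45.4%, beside 49% over all genes tested and 53% over the 26 members. Median exon length was 3218 bases for genes called higher, 4024 for those called lower, 3627 over all tested and 828 over the members. Across all 67 members the median GC of the longest transcript was 57.9%, beside 48.7% over 21903 protein-coding genes. The part of GC content, length and depth in the members' differences was not tested.

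Of the linker histones, Hist1h1a (ENSMUSG00000049539, chr13:23763666-23764406) was the highest per kilobase, at 22.3 RPKM. It was at 19.5 and 9.47 CPM after 10 cycles, 31.1 and 17.3 after 14 and 6.96 and 10.6 after 18, and 15.7 and 11.7 in 1/2, 8.69 and 20.0 in 1/4 and 23.2 and 24.1 in 1/8 oocytes. Its 18-cycle whole oocytes lay below those at 14 cycles and overlapped with those at 10 cycles, and no comparison passed the test. Hist1h1c (chr13:23738808-23740367) was at 3.28 and 5.77 CPM after 10 cycles, 1.54 and 2.03 after 14 and 11.6 and 5.27 after 18, and 8.45 and 8.62 in 1/2, 2.23 and 4.55 in 1/4 and 6.66 and 2.94 in 1/8 oocytes. Only the 14-cycle group lay apart, below both others, and the log2 fold change at 18 against 14 cycles was 2.54 ± 0.58 (SE; adjusted p = 0.00640), by the quasi-likelihood test of edgeR, with p-values adjusted by Benjamini-Hochberg, a call lost when any library other than replicate 2 at 18 cycles was left out. Hist1h1e (chr13:23620629-23622558), which shares 25.7% of its exon bases with other annotated genes, was at 0.604 and 0.871 CPM after 10 cycles, 3.64 and 1.52 after 14 and 11.3 and 3.52 after 18, and 3.23 and 0.556 in 1/2, 5.71 and 3.37 in 1/4 and 0.614 and 0 in 1/8 oocytes. The 18- and 10-cycle groups did not overlap, with a log2 fold change of 3.59 ± 0.78 (SE; adjusted p = 0.00477) in edgeR's test. This call was lost without either 10-cycle library or without replicate 1 at 18 cycles. Hist1h1b had no count in any library although all 694 of its 50-base windows were found in no other gene, and it is named after its values were seen.

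Of the H2A genes, Hist3h2a (chr11:58954685-58956830) was at 15.2 and 10.1 CPM after 10 cycles, 14.0 and 12.9 after 14 and 9.94 and 7.62 after 18, and 37.5 and 17.5 in 1/2, 16.6 and 12.1 in 1/4 and 25.6 and 18.8 in 1/8 oocytes. The whole oocytes at 18 cycles lay below those at 10 and 14 cycles and below all fractions, and no comparison passed the test. Trim17 and another gene share 33% of its exon bases, and where 1 gene lay inside another, reads entered both, so part of this level can belong to them. Hist1h2aa (chr13:23934462-23934851), the H2A variant known from testis and the highest H2A gene per kilobase (24.2 RPKM), was at 8.62 and 11.97 CPM after 10 cycles, 13.9 and 8.40 after 14 and 4.31 and 7.03 after 18, and 12.9 and 9.17 in 1/2, 5.46 and 5.35 in 1/4 and 17.8 and 8.22 in 1/8 oocytes. Its whole oocytes at 18 cycles lay below all others among the whole oocytes, and again no comparison passed. Gm44344 shares 33.1% of its exon bases, so the same limit holds for its level and rank. Hist1h2ac (chr13:23681467-23683948) was at 1.64 and 0.544 CPM after 10 cycles, 1.54 and 1.09 after 14 and 9.94 and 5.86 after 18, and 11.4 and 10.3 in 1/2, 6.46 and 4.36 in 1/4 and 1.31 and 2.94 in 1/8 oocytes. All 18-cycle whole oocytes lay above those at 10 and 14 cycles, with log2 fold changes of 3.10 ± 0.71 (SE; adjusted p = 0.00650) against 10 and 2.88 ± 0.69 (SE; adjusted p = 0.00845) against 14 cycles in edgeR's test. The first call ended when any library other than replicate 2 at 18 cycles was left out, the second when any other than replicate 2 at 10 cycles was. With TMM factors and all libraries kept, the call against 14 cycles was also lost.

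Of the H2B genes, Hist1h2bc (ENSMUSG00000018102, chr13:23684199-23692908) led all members, with 104 CPM per kilobase of exon (RPKM) as the mean over the 6 groups and 41.8% of the members' CPM. It was at 121 and 154 CPM after 10 cycles, 74.7 and 107 after 14 and 180.0 and 49.8 after 18, and 182 and 114 in 1/2, 61.6 and 98.2 in 1/4 and 172 and 125 in 1/8 oocytes. Its libraries varied within groups, most at 18 cycles, where the highest and the lowest of the whole oocytes both lay, and no comparison passed the test. Without the lower of the 18-cycle libraries, replicate 2, edgeR called it higher at 18 against 14 cycles. Hist3h2ba (ENSMUSG00000056895, chr11:58948920-58949533) followed per kilobase at 56.6 RPKM. It was at 6.73 and 5.55 CPM after 10 cycles, 10.4 and 7.39 after 14 and 72.3 and 76.2 after 18, and 71.6 and 41.1 in 1/2, 59.3 and 36.8 in 1/4 and 18.9 and 10.6 in 1/8 oocytes. Whole oocytes at 18 cycles lay far above those at 10 and 14 cycles, and the 1/8 oocytes lay below every other 18-cycle library. The log2 fold change was 3.86 ± 0.30 (SE; adjusted p = 5.01e-05) against 10 and 3.36 ± 0.29 (SE; adjusted p = 5.85e-05) against 14 cycles in edgeR's test. Hist1h2bk (chr13:22035870-22036345) was at 1.64 and 1.63 CPM after 10 cycles, 2.35 and 1.59 after 14 and 1.66 and 1.76 after 18, and 23.1 and 8.06 in 1/2, 2.48 and 3.17 in 1/4 and 4.65 and 3.52 in 1/8 oocytes. It was highest in both 1/2 oocytes, at a log2 fold change against whole of 3.17 ± 0.76 (SE; adjusted p = 0.0531) in edgeR's test that did not pass. It was called there with no filter and against whole oocytes at 10 cycles. Of its 50-base windows, 25.8% were found in no other gene.

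Of the H3 genes, Hist1h3f (ENSMUSG00000100210, chr13:23544052-23545312) was the highest per kilobase, at 11.4 RPKM. It was at 3.79 and 4.13 CPM after 10 cycles, 6.24 and 5.21 after 14 and 25.2 and 30.5 after 18, and 28.6 and 22.2 in 1/2, 18.9 and 13.9 in 1/4 and 8.24 and 5.29 in 1/8 oocytes. The whole oocytes at 18 cycles lay above all at 10 and 14 cycles, and the 1/4 and 1/8 oocytes lay below them. Log2 fold changes were 3.07 ± 0.37 (SE; adjusted p = 0.000216) against 10 and 2.58 ± 0.36 (SE; adjusted p = 0.000430) against 14 cycles in edgeR's test. Hist1h3g (chr13:23535422-23535951) was at 0.776 and 1.197 CPM after 10 cycles, 2.10 and 1.23 after 14 and 6.96 and 8.20 after 18, and 11.9 and 3.06 in 1/2, 6.21 and 3.76 in 1/4 and 3.86 and 1.76 in 1/8 oocytes, and Hist1h3e (chr13:23561534-23562369) at 0.862 and 0.544 CPM after 10 cycles, 0.729 and 0.869 after 14 and 5.97 and 5.27 after 18, and 2.73 and 3.33 in 1/2, 3.72 and 2.77 in 1/4 and 0.789 and 1.18 in 1/8 oocytes. For both, whole oocytes at 18 cycles lay above those at 10 and 14 cycles with no overlap. Against 10 cycles their log2 fold changes in edgeR's test were 3.19 ± 0.68 (SE; adjusted p = 0.00447) for Hist1h3g and 3.23 ± 0.75 (SE; adjusted p = 0.00694) for Hist1h3e. For Hist1h3e, also at 3.09 ± 0.73 (SE; adjusted p = 0.00780) against 14 cycles in edgeR's test, both calls ended when any 1 of the 6 libraries was left out, and also with the replicate block. For Hist1h3g the call ended without either library at 10 or at 18 cycles, and DESeq2 and the fit with no filter also called it against 14 cycles.

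Of the H4 genes, Hist1h4h (ENSMUSG00000060981, chr13:23531050-23531519) was the highest per kilobase, at 17.8 RPKM. It was at 2.07 and 3.27 CPM after 10 cycles, 2.75 and 1.96 after 14 and 13.9 and 18.2 after 18, and 14.4 and 15.01 in 1/2, 11.2 and 8.52 in 1/4 and 5.52 and 3.52 in 1/8 oocytes. The 18-cycle whole oocytes and the 1/2 oocytes stood at the top and did not overlap with the whole oocytes at 10 and 14 cycles. Its log2 fold changes were 2.85 ± 0.51 (SE; adjusted p = 0.00159) against 10 and 3.06 ± 0.51 (SE; adjusted p = 0.00106) against 14 cycles in edgeR's test, and the first ended without either 10-cycle library, the second without replicate 2 at 14 cycles. Hist1h4a (chr13:23760692-23761230) was at 2.50 and 1.63 CPM after 10 cycles, 2.59 and 1.59 after 14 and 7.62 and 11.7 after 18, and 24.9 and 8.06 in 1/2, 6.21 and 5.74 in 1/4 and 5.70 and 3.52 in 1/8 oocytes. Again the 18-cycle whole oocytes did not overlap with those at 10 and 14 cycles, at 2.47 ± 0.59 (SE; adjusted p = 0.00814) against 10 and 2.49 ± 0.59 (SE; adjusted p = 0.00751) against 14 cycles in edgeR's test. The first call ended when any 1 of the 6 libraries was left out, the second when any other than replicate 1 at 18 cycles was. Hist1h4i (chr13:22040636-22041362) was at 2.33 and 3.70 CPM after 10 cycles, 2.35 and 2.39 after 14 and 11.3 and 0.586 after 18, and 9.44 and 8.89 in 1/2, 6.70 and 6.54 in 1/4 and 3.42 and 0 in 1/8 oocytes. Its whole oocytes at 18 cycles held both the highest and the lowest whole-oocyte value, and no comparison passed. Without the lower of them, replicate 2, edgeR called it higher against 14 cycles.

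**Figure D2:**
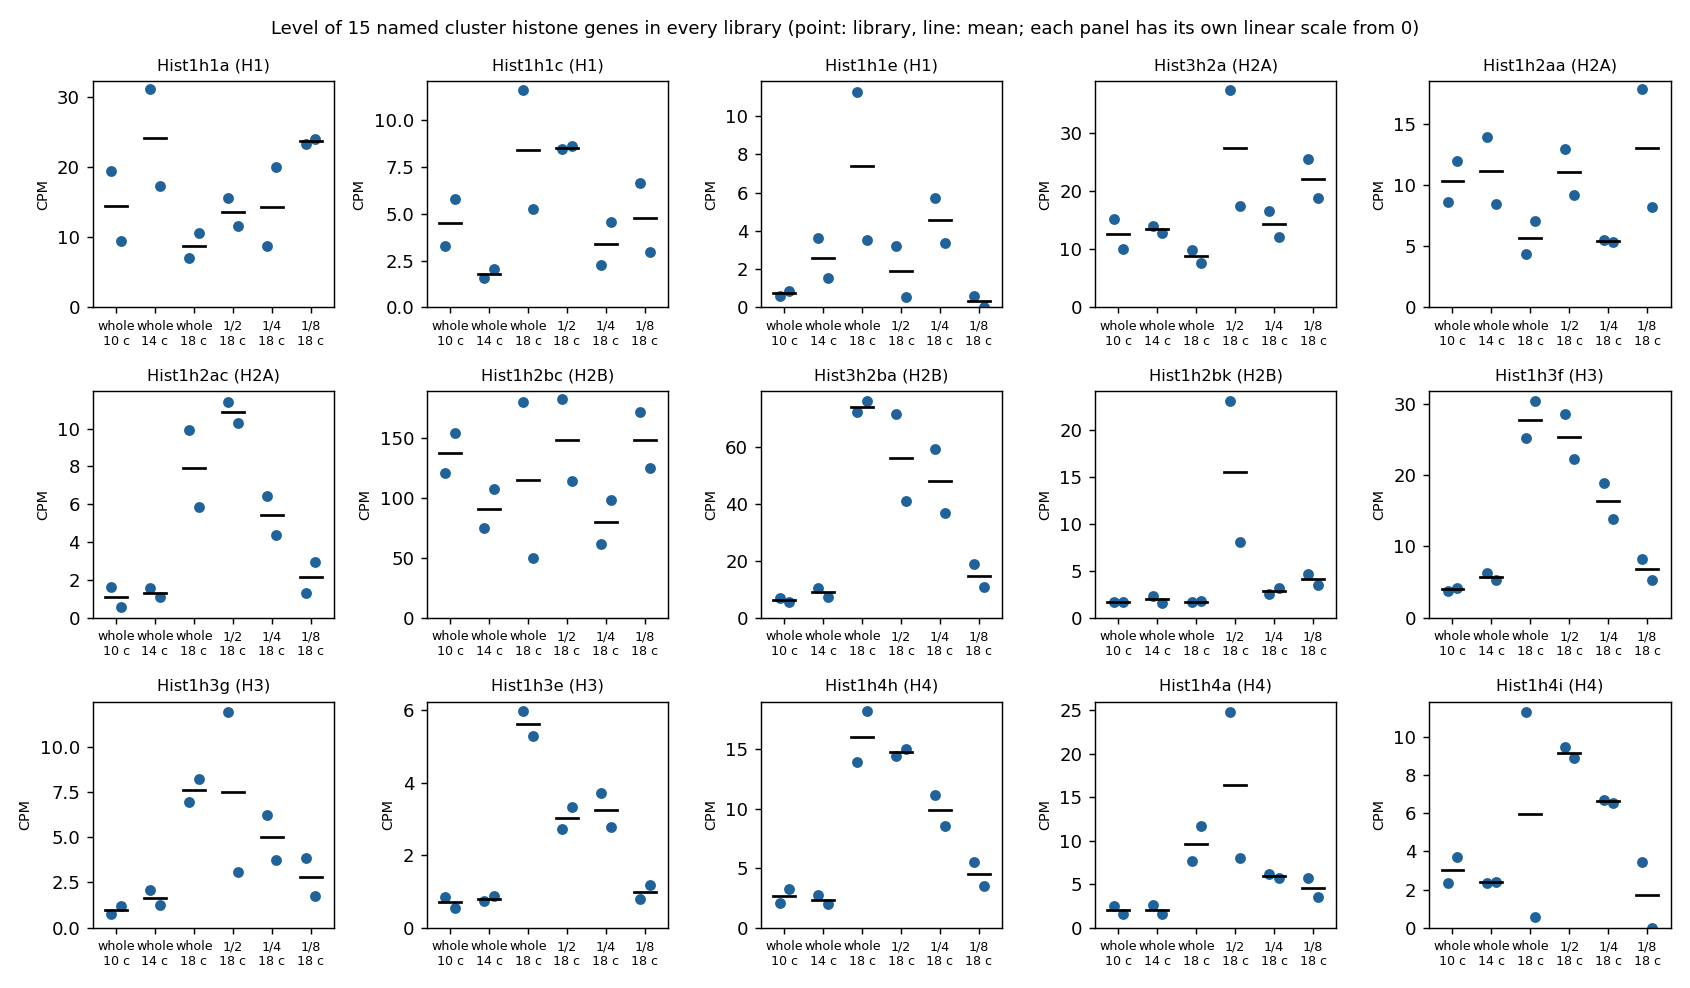
Level in CPM (vertical axes, each from 0 on its own scale) of 15 members in the 12 libraries by group (horizontal axes); points are libraries and lines are means of 2. Hist3h2ba stood at 72.3 and 76.2 CPM in whole oocytes at 18 cycles and at or under 10.4 CPM at 10 and 14 cycles.

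The second set of comparisons asks how the members came out when less of an oocyte was used, with the whole oocytes at 18 cycles as the shared reference in a fit of 8 libraries. Here 32 members passed the filter among 14788 genes. In 1/2 oocytes edgeR called 0 members higher, beside 0.0811% of all genes, and 0 lower, beside 0.0406%, with 6 at an unadjusted p under 0.05 and 0 called by DESeq2. In 1/4 oocytes it called 0 higher, beside 0.0338%, and 0 lower, beside 0.426%, with 3 at an unadjusted p under 0.05 and 0 by DESeq2. In 1/8 oocytes 4 of 32 were lower, near the 8.69% of all genes, and 0 were higher, beside 7.06% (2 were higher at an unadjusted p under 0.05, and 0 were called higher by DESeq2). The median log2 fold change of the members was 0.43, -0.08 and -1.12 in 1/2, 1/4 and 1/8 oocytes, beside -0.01, 0.05 and 0.03 over all genes. Up to 2 members had no count in a group, and with these at the bound set by 3 counts per library the medians were 0.41, -0.12 and -1.11. In 1/2 oocytes the median was 0.67 and 0.78 without replicate 1 and 2 of the whole oocytes. In 1/8 oocytes it was -0.45 without replicate 1 of the whole oocytes, beside 0.14 over all genes. With any other library left out, it ranged from -1.61 to -0.93. Over the 5 members with 10 or more counts in every library it was 1.19, beside -0.02. That filter itself drops members low in 1/8 oocytes, so this value cannot show the direction of the members. Against whole oocytes at 10 cycles the medians were 2.02, 1.25 and 0.40, beside -0.30, -0.17 and -0.06. The direction in 1/8 oocytes thus depended on the reference.

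The 4 members lower in 1/8 oocytes were among those higher at 18 cycles, and both comparisons use the same whole oocytes at 18 cycles. By the quasi-likelihood test of edgeR, with p-values adjusted by Benjamini-Hochberg, the log2 fold change in 1/8 oocytes was -2.46 ± 0.40 (SE; adjusted p = 0.000175) for Hist3h2ba and -2.16 ± 0.45 (SE; adjusted p = 0.00132) for Hist1h3f. For Hist1h4h it was -1.93 ± 0.53 (SE; adjusted p = 0.00892) and for Hist1h1e -4.10 ± 1.09 (SE; adjusted p = 0.00756) by the same edgeR test. The value of Hist1h1e rests on 7 and 0 counts in the 1/8 libraries and ranged from -7.73 to -3.14 with 1 library left out. Hist1h4h lost its call when any 1 of the 8 libraries was left out and also with TMM factors and all libraries kept, Hist1h3f without replicate 2 of the 1/8 or of the whole oocytes, and Hist1h1e without either 1/8 library, replicate 1 of the 1/4 or replicate 1 of the whole oocytes. Hist3h2ba kept its call when each of the 8 libraries was left out in turn, whereas the count of 4 fell to 1 without replicate 2 of the 1/8 oocytes (4.70% of all genes lower). It fell to 2 without replicate 1 of the 1/8 or of the 1/4 oocytes (6.72% and 7.94%, with 29 and 30 members tested), or without replicate 1 or 2 of the whole oocytes (5.55% and 6.40%). Against whole oocytes at 10 cycles edgeR called 0 of 18041 genes in 1/8 oocytes in either direction, so the 0 members called (6 of 33 at an unadjusted p under 0.05) say nothing about the members in particular. There Hist3h2ba, Hist1h3f and Hist1h4h turned to 1.40, 0.90 and 0.90. DESeq2 was not run with that reference. Against it 9 of 33 members were called higher in 1/2 oocytes, beside 9.30% of all genes, and 3 of 33 in 1/4 oocytes, near the 5.82% of all genes.

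Relative to the ERCC molecules, of which the same amount went into each sample, the median of all genes shifted in the fractions. It was -2.00, -2.69 and -4.92 in 1/2, 1/4 and 1/8 oocytes and that of the members -1.64, -2.87 and -5.94. Under this scaling 7, 17 and 27 of the 32 members were called lower, beside 52.0%, 69.7% and 87.5% of all genes, so these counts show no excess among the members. The members' median minus that of all genes was 0.36, -0.18 and -1.02, against 0.44, -0.13 and -1.14 by median-ratio factors. Gene counts per ERCC count were 324 and 360.0 after 10 cycles, 347 and 354 after 14 and 1873 and 1158 after 18, and 439 and 344 in 1/2, 214 and 174 in 1/4 and 49.3 and 46.5 in 1/8 oocytes. The whole oocytes at 18 cycles stood above all other libraries in this ratio.

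On chromosome 13, 18 members between positions 21715763 and 21837530 of GRCm38 summed to a mean of 0.768 CPM, and 9 of them had no count. The 29 members between 23531050 and 23764406 summed to 201 CPM and include Hist1h2bc. Between these blocks, 5 members from 22035164 to 22043676 summed to 12.8 CPM. Beyond them the pair Hist1h2ba and Hist1h2aa at 23933773 to 23934851 summed to 11.8 CPM. Near-identical copies were frequent in the first block, where 12 of 18 members had fewer than 100 windows of 50 bases found in no other gene, against 1 of 29 in the main block. Whether reads that fit several copies entered the counts was not tested, and a low count there can also come from reads that had no unique place. Over all members, 18 had fewer than 100 such windows and 4 of those had 10 or more counts, whereas 33 of the other 49 did.

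**Figure D3:**
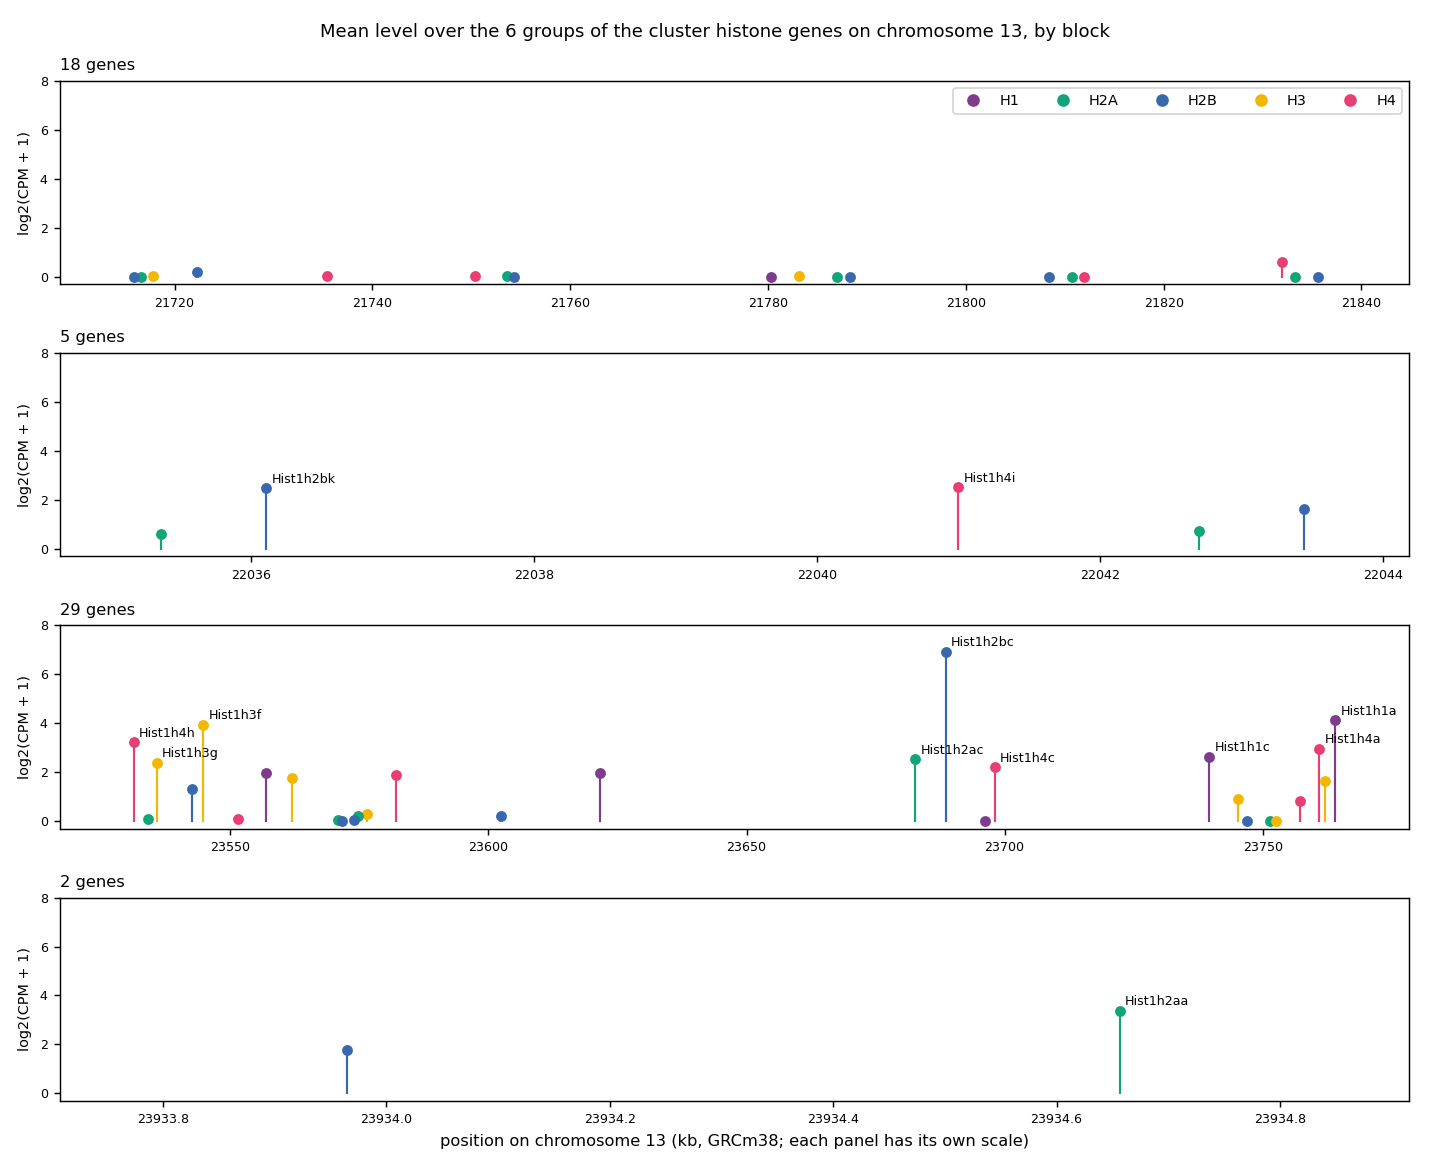
Mean level over the 6 groups, as log2(CPM + 1) (vertical axes), of the 54 members on chromosome 13 by position in kb of GRCm38 (horizontal axes, each block on its own scale), coloured by histone class. The 18 members of the first block sum to 0.768 CPM and the 29 of the third to 201 CPM.

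The histone stem-loop was searched by its consensus within 150 annotated bases after the stop codon. It was found in 46 of the 67 members, 21 to 58 bases after the stop (median 31), and in 2 of 21672 other protein-coding genes (0.00923%), with 0 on the other strand. Of the 21 members without it, 17 have under 50 annotated bases after the stop. Hist1h2bc is not among these 17, since its annotated transcript is spliced, with 2 exons, and holds 742 bases after the stop with no stem-loop. The 23 members whose annotation runs 100 or more bases beyond the stem-loop made up 38.9% of the members' CPM, and the 23 with less made up 8.62%. The 17 members with a poly(A) signal in the last 50 annotated bases made up 29.3%. The 50 without it, Hist1h2bc among them, made up 70.7%. These sums are not scaled to length, and why they differ was not tested. All 9 members called in the first or second set of comparisons by edgeR, with all libraries kept and alternatives aside, hold the stem-loop. It is not particular to them, since 21 of the 26 members tested across cycles and 25 of the 32 tested in the fractions hold it. The sites of the 9 called members follow. Each is given in the sense strand of the GENCODE M21 transcript (GRCm38), with the stem-loop in capitals.
Hist1h1c: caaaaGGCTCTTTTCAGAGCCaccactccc
Hist1h1e: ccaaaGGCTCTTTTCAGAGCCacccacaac
Hist1h2ac: ccaaaGGCTCTTTTCAGAGCCcccactttt
Hist3h2ba: ccaaaGGCTCTTTTCAGAGCCaccttccaa
Hist1h3e: aaaacGGCTCTTTTAAGAGCCacctccatt
Hist1h3f: aaaacGGCTCTTTTAAGAGCCacctccatt
Hist1h3g: ttaaaGGCTCTTCTTAGAGCCacccatctt
Hist1h4a: ccaaaGGCCCTTCTCAGGGCCgcccacatt
Hist1h4h: ccaaaGGCCCTTTTCAGGGCCgcccacatt

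These stem-loops lie at chr13:23739512-23739527, chr13:23621782-23621797, chr13:23683477-23683492, chr11:58949349-58949364, chr13:23561903-23561918, chr13:23544932-23544947, chr13:23535889-23535904, chr13:23760800-23760815 and chr13:23531458-23531473, in the order printed. The commonest core, found in Hist3h2ba, was shared by 26 members, none of them H4. The core of Hist1h4h was shared by 7 members, all H4. Annotated length beyond the loop ranged among the 9 from 46 bases in Hist1h4h to 2010 bases in Hist1h2ac, so a long annotated end was not common to all of them.

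A list drawn up for histone mRNA 3′ end processing and decay matched 26 genes, all of them tested. Of these, edgeR called 7 higher and 4 lower at 18 cycles compared with 10, beside 12.3% and 10.8% of all genes. Slbp, the stem-loop binding protein, had the highest CPM of the list as the mean over the 6 groups and was at 674 and 598 CPM after 10 cycles, 557 and 567 after 14 and 724 and 316 after 18, and 879.6 and 751 in 1/2, 555 and 667 in 1/4 and 837 and 826 in 1/8 oocytes. The second whole oocyte at 18 cycles was the lowest of the 12 libraries, Upf1 stood above Slbp in both whole oocytes at 18 cycles (821 and 1881 CPM), and Slbp was not called in any comparison. Log2 fold changes in edgeR's test were 2.14 (adjusted p = 0.00131) for Upf1, the helicase of histone mRNA decay, 1.52 (adjusted p = 0.00123) for Lsm11 and 1.11 (adjusted p = 0.00174) for Lsm10, both of the U7 particle. They were 1.61 (adjusted p = 0.00104) for Mif4gd, 1.28 (adjusted p = 0.00132) for Srrt, 1.19 (adjusted p = 0.00219) for the exonuclease Eri1 and 0.92 (adjusted p = 0.00733) for Fip1l1 by edgeR. Lower were Nudt5 at -1.68 (adjusted p = 0.000705), Mtpap at -1.45 (adjusted p = 0.00378), Zfp473 at -1.41 (adjusted p = 0.00720) and Npat, a coactivator of histone genes, at -1.36 (adjusted p = 0.00284), by edgeR. The processing list had a median of 0.09 and was split in direction, also with Nudt5 set aside. Whether Nudt5 takes part in histone mRNA processing or decay was not tested. With ERCC factors edgeR called 8348 of all genes higher and 0 lower at 18 cycles compared with 10, and in 1/8 oocytes 12937 lower and 0 higher, so calls of lower genes at 18 cycles and of higher genes in 1/8 oocytes hold relative to other genes only.

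Against 14 cycles, 8 genes of the processing list were higher and 4 lower, beside 12.5% and 10.7% of all genes. Between 14 and 10 cycles edgeR called 0 of them, with 0 at an unadjusted p under 0.05 and 0 by DESeq2. In 1/2 oocytes edgeR called Cstf2t alone, lower, beside 0.0406% of all genes, and in 1/4 oocytes Upf1 alone, lower, beside 0.426%, where DESeq2 called 2 and 2. DESeq2 called 16 and 14 in either direction at 18 against 10 and 14 cycles and 7 in 1/8 oocytes. Of all genes it called 15.6% higher and 13.9% lower, 15.7% and 13.7%, and 8.47% and 10.7% in these comparisons. Its shares of all genes were 0.69% higher and 0.331% lower in 1/2 oocytes, and 0.467% and 1.15% in 1/4 oocytes. By edgeR, 2 of 26 were higher in 1/8 oocytes (Mtpap and Nudt5), near the 7.06% of all genes, and 5 lower, beside 8.69%. Among the lower, edgeR's log2 fold changes were -2.64 (adjusted p = 2.60e-05) for Upf1, -1.92 (adjusted p = 0.00244) for Cstf2t and -1.59 (adjusted p = 0.00121) for Srrt. Lsm11 was at -1.54 (adjusted p = 0.00196) and Mif4gd at -1.45 (adjusted p = 0.00332) by edgeR.

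Histone genes outside the clusters gave a further comparison, with 17 matched and 12 tested. At 18 against 10 cycles 9 were higher and 1, H1foo, was lower, beside 12.3% and 10.8% of all genes, with a median of 1.44. The counts were also 9 and 1 against 14 cycles (12.5% and 10.7% of all genes). H1foo, with the highest CPM of the list, was at 3383 and 3100 CPM after 10 cycles, 3694 and 3770 after 14 and 941 and 1235 after 18, and 3888 and 2280.0 in 1/2, 2601 and 3388 in 1/4 and 4842 and 2934 in 1/8 oocytes. Only the whole oocytes at 18 cycles were low, at a log2 fold change of -1.29 (adjusted p = 0.00139) in edgeR's test. H2afx, the variant that marks DNA breaks when phosphorylated, was at 90.2 and 71.4 CPM after 10 cycles, 97.7 and 80.8 after 14 and 456 and 745 after 18, and 697 and 548 in 1/2, 475 and 366 in 1/4 and 195 and 104 in 1/8 oocytes, and H2afj at 19.3 and 25.7 CPM after 10 cycles, 23.7 and 29.7 after 14 and 240.3 and 306 after 18, and 301 and 193 in 1/2, 199 and 125 in 1/4 and 36.2 and 14.7 in 1/8 oocytes. For both, all whole oocytes at 18 cycles lay above those at 10 and 14 cycles. Their log2 fold changes in edgeR's test were 3.19 (adjusted p = 8.43e-05) and 3.87 (adjusted p = 4.92e-05).

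The other replication-independent genes called higher by edgeR were H1fx at 3.08 (adjusted p = 0.000286), H1f0 at 2.76 (adjusted p = 5.01e-05), H2afv at 1.89 (adjusted p = 0.000365), the centromeric Cenpa at 1.51 (adjusted p = 0.000707), H3f3b at 1.36 (adjusted p = 0.000474) and H3f3a at 1.15 (adjusted p = 0.00145), both of H3.3, and H2afy at 1.16 (adjusted p = 0.00625). Between 14 and 10 cycles 0 of 12 were called (1 at an unadjusted p under 0.05, 0 by DESeq2). For both 1/2 and 1/4 oocytes edgeR called 0 of 12, with 4 and 6 at an unadjusted p under 0.05 and 1 and 3 by DESeq2. Of all genes DESeq2 called 0.69% higher and 0.331% lower in 1/2 oocytes, and 0.467% and 1.15% in 1/4 oocytes. In 1/8 oocytes H1foo was higher at 1.62 (adjusted p = 0.000837), while H1fx at -4.21 (adjusted p = 1.74e-05), H2afj at -3.54 (adjusted p = 7.48e-06), H1f0 at -2.22 (adjusted p = 2.60e-05) and H2afx at -2.21 (adjusted p = 0.000107) were lower by edgeR. The summed level of the 17 genes was 3958 and 3676 CPM after 10 cycles, 4339 and 4373 after 14 and 2853 and 3503 after 18, and 6308 and 4148 in 1/2, 4130 and 4656 in 1/4 and 5754 and 3799 in 1/8 oocytes. H1foo made up most of it except in the whole oocytes at 18 cycles. Without H1foo the sum of the other 16 was 575 and 576 CPM after 10 cycles, 645 and 603 after 14 and 1912 and 2268 after 18, and 2420.0 and 1868 in 1/2, 1529 and 1268 in 1/4 and 912 and 865 in 1/8 oocytes. At 18 cycles the whole oocytes thus lay below those at 10 and 14 cycles with H1foo and above them without it.

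Markers checked the label of the samples. All 13 oocyte markers had counts in every library, led by the growth factor Gdf9, and summed to 24370 and 21690 CPM after 10 cycles, 24470 and 25420 after 14 and 7004 and 5976 after 18, and 7930 and 8210 in 1/2, 12550 and 12760 in 1/4 and 19190 and 17770 in 1/8 oocytes. The whole oocytes at 18 cycles and the 1/2 oocytes were lowest, and 11 of 13 were called lower at 18 than at 10 cycles, 12 against 14 cycles, and 9 higher in 1/8 than in whole oocytes, beside 10.8%, 10.7% and 7.06% of all genes. Between 14 and 10 cycles 0 were called by edgeR (0 at an unadjusted p under 0.05, 0 by DESeq2), and in 1/2 and 1/4 oocytes 0 (3 and 8 at an unadjusted p under 0.05, 0 and 3 by DESeq2). In 1/4 oocytes DESeq2 called 0.467% of all genes higher and 1.15% lower.

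Of 16 granulosa and cumulus markers, the highest CPM as the mean over the 6 groups was that of Nr5a2, and their sum was 235 and 88.7 CPM after 10 cycles, 117 and 181 after 14 and 81.9 and 29.9 after 18, and 36.8 and 32.8 in 1/2, 58.1 and 62.8 in 1/4 and 84.0 and 77.0 in 1/8 oocytes. No marker of them was at 0 in all libraries, and the first library at 10 cycles stood highest. There Cyp11a1 led with 66.6 CPM, against 1.42 in the second library, and in both 1/8 oocytes Cyp19a1 led with 42.4 and 35.3 CPM. Called lower at 18 cycles were 2 of 15 tested against 10 cycles, near the 10.8% of all genes, and 3 against 14 cycles, beside 10.7%. In 1/8 oocytes 1 of 10 tested was higher, near the 7.06% of all genes. EdgeR called 0 between 14 and 10 cycles (0 at an unadjusted p under 0.05, 0 by DESeq2) and 0 in 1/2 and 1/4 oocytes (4 and 4 at an unadjusted p under 0.05, 0 and 0 by DESeq2). The 2 theca markers, with Cyp17a1 the higher as the mean over the 6 groups, summed to at most 4.57 CPM, in the first library at 10 cycles, and to 0 in all fractions. Neither was called in any cycle comparison by edgeR or DESeq2, with 0 at an unadjusted p under 0.05. The 4 blood markers summed to at most 0.172 CPM, from single counts of Hbb-bs and Ptprc, with Hbb-bt and Hba-a1 at 0 throughout and none passing the filter. The part of other cells in the members' levels was not tested.

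The other 52 members are given by their ranges. Of these, 22 had 10 or more counts, and mean CPM reached 3.64, in Hist1h4c, named after its values were seen. Those tested ranged in log2 fold change from -2.35 to 2.65 at 18 against 10 cycles (11 members, smallest adjusted p = 0.0217 by edgeR) and from -3.55 to 2.36 in 1/8 oocytes (15 members, smallest adjusted p = 0.0251 by edgeR), without 2 members that had no count in a group. Of the 52, DESeq2 called Hist2h3c1 (named after its values were seen) higher at 18 against 10 and against 14 cycles, and edgeR with no filter called it against 14 cycles. Gm20634 shares 100% of the exon bases of Hist2h3c1, so part of its level can belong to that gene. Hist1h4c and Hist2h3c1 were also among the 9 called in 1/2 oocytes against whole oocytes at 10 cycles. Their low counts limit what could be detected at this depth.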

How the data were processed

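The authors sequenced poly(A) cDNA, mapped reads to GRCm38 with STAR and counted them per gene with HTSeq, and the deposited values are raw read counts per gene (submitters' notes: STAR 2.7.2a, HTSeq 0.9.1, cutadapt 2.5). Where a gene lay wholly inside an exon of another gene, the outer count was at least the inner count in 1019 of 1019 values on the same strand and 845 of 845 on the opposite strand, so in these pairs counts ignored strand and entered both genes. The tables also hold reads marked ambiguous, 3.05% to 5.13% of gene counts, and the stated default settings of HTSeq would leave such reads out, so how other overlaps were counted is not settled. Reads with no feature, 7.24% to 11.2% of each library, stayed out of totals. Members, matched by Ensembl ID, and all lists (processing and decay, replication-independent histones, cell type markers) were chosen with earlier results of these data known. Counts were tested with edgeR 4.0.16 (R 4.3.3) with median ratio size factors, SEs being taken from the F statistic. Alternatives were DESeq2 1.42.0, TMM, ERCC factors, other filters, a replicate block, whole oocytes at 10 cycles as reference and left-out libraries. The fit was tested on simulated data with a log2 change of 2 in 200 genes. It recovered 50% of them at 18 against 10 cycles and 46% in 1/8 against whole oocytes, with 1 false call in each. Of the changed genes with a mean normalized count of 10 or less, it recovered 0 of 42 and 2 of 46. A member with low counts and no call can thus still differ. Named members were the 12 highest by mean CPM, all called members and the highest of each class. Of the processing and replication-independent lists, genes called at 18 against 10 cycles or in 1/8 oocytes were named, with the most abundant of each.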

Additional observations from a re-analysis of the deposited data

How the results depend on the processing

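With 2 libraries per group, low counts and 1 female, members near the threshold depend on single libraries. Of the 89 log2 fold changes of called members under alternatives that kept all libraries, ERCC factors aside, 81 kept direction and call. The 5 that lost the call were Hist1h4h in 1/8 oocytes and Hist1h2ac against 14 cycles with TMM, Hist1h3e against 10 and 14 cycles with the replicate block, and Hist1h1e in 1/8 oocytes against whole oocytes at 10 cycles. ERCC factors moved the median of all genes in the called direction, so the 19 calls kept with them show no stability. Direction turned in 3, in 1/8 oocytes against whole oocytes at 10 cycles (0.90 for Hist1h3f, 0.90 for Hist1h4h, 1.40 for Hist3h2ba). With 1 library left out, 60 of 122 kept the call and none turned, where the remaining library of a group is assumed to vary like the other groups. Members called at 18 against 10 cycles numbered 2 to 5 with a library left out, 4 of the 8 tested with 10 or more counts in every library (22.0% of all genes) and 19 with ERCC factors (47.6%), and at 18 against 14 cycles 2 to 6, 4 of 8 (21.6%) and 16 (47.9%). In 1/8 oocytes the count was 1 to 3 with a library left out, 1 of the 5 tested with the strict filter (12.6% of all genes lower; the filter itself drops members low in 1/8 oocytes), 27 with ERCC factors (87.5%) and 0 against 10 cycles, where edgeR called 0 of 18041 genes (6 members at an unadjusted p under 0.05, DESeq2 not run). In 1/2 oocytes 7 were lower with ERCC factors (52.0%), 1 of 47, Hist1h2bk, higher with no filter (0.403%) and 9 of 33 higher against 10 cycles (9.30%), and in 1/4 oocytes 17 were lower with ERCC factors (69.7%) and 3 of 33 higher against 10 cycles (5.82%). The cause of these changes was not tested. Same-numbered libraries did not deviate together (correlations across genes from -0.14 to 0.14), so there was no sign that the numbers pair the libraries. Which oocyte each fraction came from remains unknown. With the replicate block the counts were 7 and 6 of 26 at 18 against 10 and 14 cycles (2272 and 2268 of all 17532 genes higher), 4 of 32 in 1/8 oocytes, near the 9.98% of all genes lower, and 0 in the other comparisons. Without Hist1h2bc the mean summed level was 84.7, 103 and 225 CPM after 10, 14 and 18 cycles and 278, 183 and 129 CPM in 1/2, 1/4 and 1/8 oocytes. Adding reads with no feature to the denominator gave 198, 173 and 310.2 CPM after 10, 14 and 18 cycles and 394, 242 and 254 CPM in 1/2, 1/4 and 1/8 oocytes. With at least 5 counts, members detected averaged 26.5, 26.5 and 19.0 after 10, 14 and 18 cycles and 27.0, 27.5 and 19.5 in 1/2, 1/4 and 1/8 oocytes. With at least 1 count at the smallest library total, the expected number was 27.1, 27.4 and 32.9 after 10, 14 and 18 cycles and 31.2, 31.5 and 27.1 in 1/2, 1/4 and 1/8 oocytes. By longest transcript in place of exon union, 62 of 67 members kept their rank per kilobase.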
